A study of Rattus norvegicus with 40 samples.

Results

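The genes described here are 36 that carry out or control the making of cholesterol and fatty acids. They run from the first mevalonate enzymes to cholesterol itself, together with the sterol-sensing transcription factors and their regulators, a few sterol carriers, and the synthases, desaturases and elongases of fatty acids. They were chosen by name from the pathways. Hmgcs1, the synthase that makes HMG-CoA, had no probe set annotated to it alone and has no value here, so 35 of the 36 were measured. All 35 passed the filter on low intensity and were tested, out of 10304 genes tested in all. Where a gene had several probe sets of its own, the brightest on average stands for it.

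The RNA came from rat cerebral cortex and was read on 40 Affymetrix one-colour arrays, 20 from rats given hypoxic preconditioning, a spell of lowered oxygen, and 20 from rats given a sham treatment in normal oxygen. Samples are numbered 1 to 20 in each group and were deposited in blocks of 5 per group, which gives 4 runs, 1 to 5, 6 to 10, 11 to 15 and 16 to 20. The sources used here give neither the oxygen level and length of exposure nor the strain and age of the rats, and they do not state what a run stands for, so biology and processing between runs cannot be told apart. Nothing says that each sample is a separate animal, so each p-value reflects only how far these samples spread, in part perhaps for technical reasons.

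The brain makes nearly all of its cholesterol itself, because lipoproteins of the blood do not cross into it. Acetyl-CoA is built into mevalonate, then into isoprenoid units, squalene, lanosterol and, through a chain of reductions and demethylations, cholesterol, and several of the late enzymes use molecular oxygen. The genes of this chain are switched on by the transcription factor SREBP-2, encoded by Srebf2, and those of fatty acid synthesis mainly by SREBP-1, encoded by Srebf1. When sterols are plentiful, the INSIG proteins hold the escort protein SCAP and its SREBP cargo in the endoplasmic reticulum. Much of the cholesterol of the brain lies in myelin, and astrocytes supply neurons with cholesterol on apolipoprotein E.

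The deposited values are probe set intensities already scaled to a common mean, and differences are given on the log2 scale, preconditioned minus sham unless another contrast is named. A gene is called when its limma adjusted p, by the Benjamini-Hochberg method over all 18625 probe sets kept, is under 0.05, and errors given with a difference are standard errors from that fit. Levels of different probe sets are not compared. Correlations between arrays lay between 0.962 and 0.985, and no 2 arrays were identical. Preconditioned samples 5 and 6 stood apart, with median log2 intensities of 5.59 and 5.53 where every other array was at 5.71 or above. All 12 neuronal marker genes were tested, as were 10 of 11 for astrocytes and 6 of 6 for striatum, hippocampus and thalamus. Only 5 of 12 listed myelin genes were tested. Genes of a list that were not tested lay under the filter or had no probe set of their own. Opalin lay at the floor of 16 on all arrays.

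The first question is whether preconditioning changed the level of these genes. By limma, in a fit that did not pair samples by number, no member passed in any run taken alone. The single member called in the average over the 4 runs was Fdft1, squalene synthase, which was lower in preconditioned cortex. With sample number as a block in the fit, Fdft1 was also called in samples 1 to 5 (limma adjusted p = 0.0108). In samples 1 to 5, 0 of 35 members were called, where 2.39% of all probe sets were called. Samples 6 to 10 also gave 0 of 35, with 2.22% of all probe sets called. In samples 11 to 15 the count was again 0, and only 0.0698% of all probe sets were called. In samples 16 to 20 neither the members nor any other probe set were called (0%). In the average of the 4 runs 1 of 35 members was called, against 3.99% of all probe sets. Read against these shares, a count of 0 or 1 among 35 members lies close to the background.

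At an unadjusted limma p under 0.05 there were 3, 7, 5 and 1 members in the 4 runs in order, while all probe sets gave 3100, 3128, 1835 and 952. The members' median difference was 0.03, 0.03, -0.07 and -0.02 in the 4 runs and -0.03 in their average. The same medians over all probe sets were -0.03, -0.02, 0.00, -0.00 and -0.02. The medians were therefore near 0, while single members reached -0.34, -0.48, 0.29 and -0.67 in the 4 runs, Fdft1, Abca1, Srebf1 and Abca1 in order. The 95% interval of the difference lay within 0.5 of 0 on the log2 scale for 32, 33, 32 and 33 of the 35 members in the 4 runs and for 34 in the average. The groups did not overlap for 2 members in samples 1 to 5, Fdft1 and Sc5d, both lower in preconditioned samples, where 4.28% of all probe sets did not overlap. No member was free of overlap in the later runs, where this was so for 3.66%, 2.21% and 1.14% of all probe sets. The test of whether the effect of preconditioning differed between runs called 0 of 35 members and 0.762% of all probe sets. At an unadjusted p under 0.05 by the limma F-test there were 4 members and 2400 of all 18625 probe sets.

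**Figure D1:**
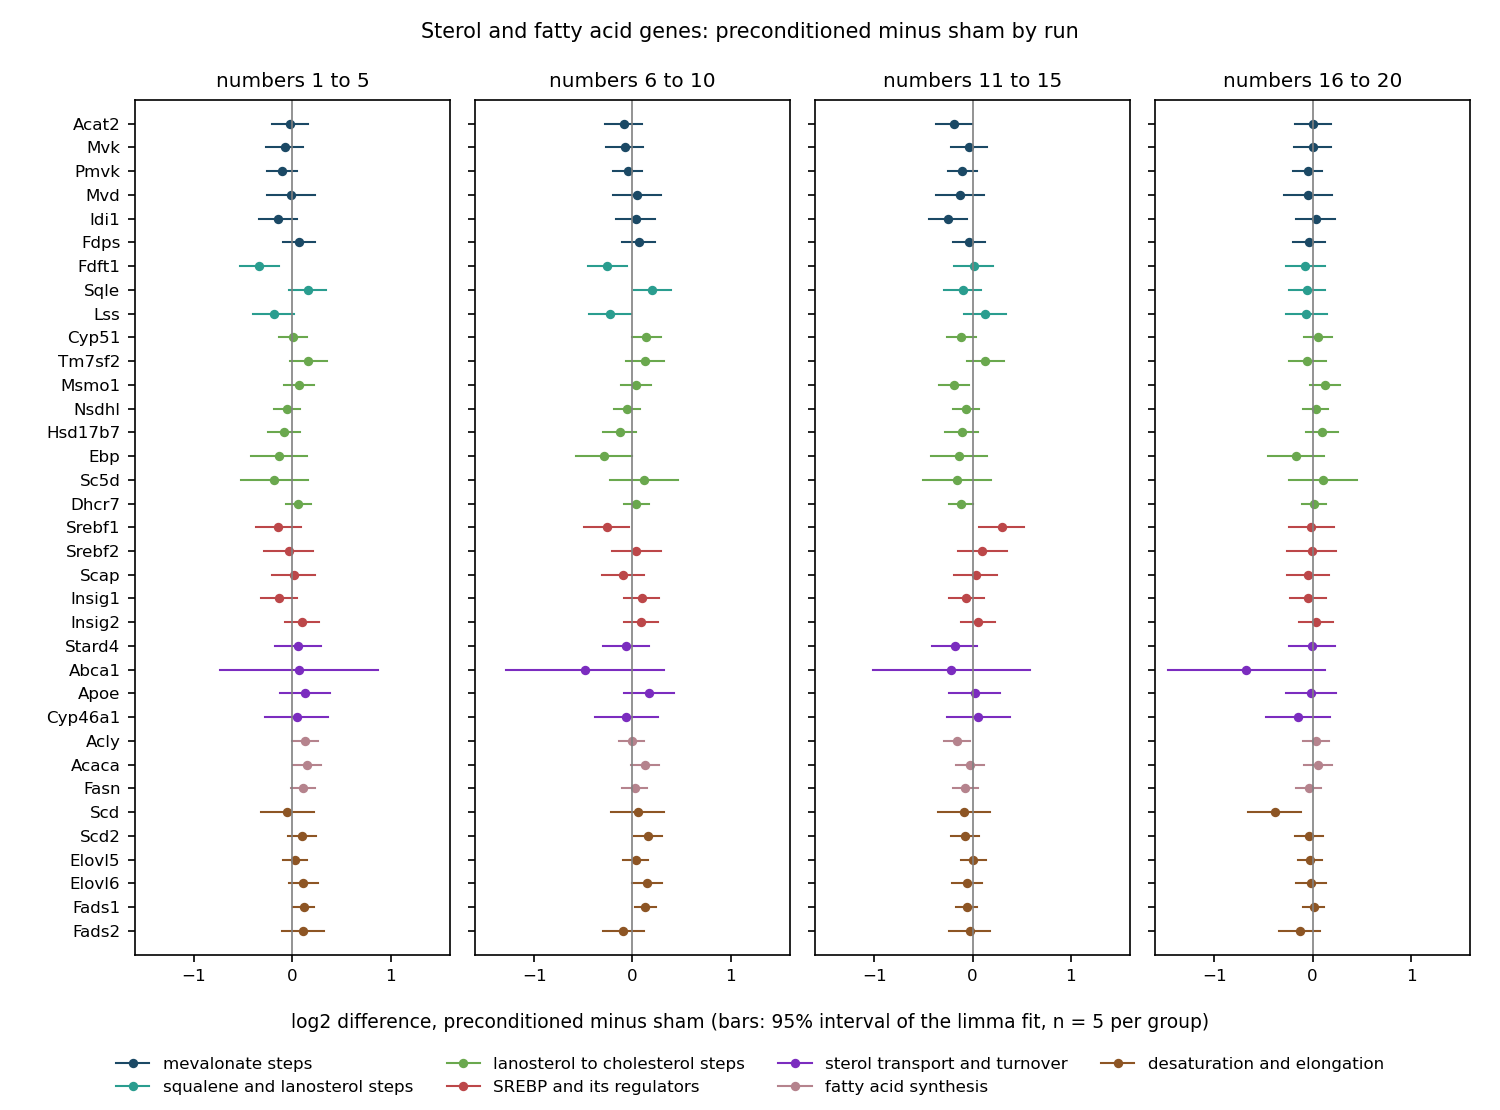
Log2 difference of each member, preconditioned minus sham, in each of the 4 runs (5 arrays per group and run); points are the fitted differences and bars their 95% intervals. Most intervals cross 0, those of Fdft1 lie below 0 in samples 1 to 5 and 6 to 10, and the interval of Abca1 is the widest in every run.

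The second question is whether the level of the genes differed between runs within a group. In sham cortex it did for 6 of the 35 members by the limma F-test across the 4 runs, or 17.1%, next to 13.7% of all probe sets. The 6 were Acat2, Acaca, Cyp46a1, Scd, Scap and Insig1. In preconditioned cortex 9 of 35 were called, or 25.7%, next to 22.8% of all probe sets, namely Acat2, Fdft1, Sqle, Srebf1, Scap, Insig1, Acaca, Fasn and Elovl6. The genes called in both were 4, which is 66.7% of the sham list and 44.4% of the preconditioned list. The called shares of members, 17.1% in sham and 25.7% in preconditioned cortex, were near those of all probe sets, 13.7% and 22.8%. The overlap of the sham and preconditioned lists was not counted over all probe sets.

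Between the last and the first run of sham samples, 16 to 20 minus 1 to 5, 9 members passed, 7 higher and 2 lower, and 14.8% of all probe sets passed. The SREBP system genes Srebf1, Scap and Insig1 were higher in samples 16 to 20, as were Apoe and Cyp46a1 of sterol transport and turnover and Scd and Elovl5 of fatty acid modification. The early enzymes Acat2 and Acaca, which each take acetyl-CoA into a pathway, were lower. In preconditioned samples the same contrast passed for 8 members, 2 higher and 6 lower, with 17.6% of all probe sets. Those were Srebf1 and Insig1, higher, and Acat2, Fdps, Sqle, Acaca, Fasn and Elovl6, lower. Calls shared by both groups numbered 4, Acat2, Acaca, Srebf1 and Insig1, which is 44.4% of the sham calls and 50% of the preconditioned calls. All 9 genes called in sham had the same sign in preconditioned samples, which are other arrays of the same runs. Neither the shared calls nor the shared signs were counted over all probe sets. Leaving out 1 array at a time moved the sham count between 3, without sham sample 1, and 10, without sham sample 10.

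**Figure D2:**
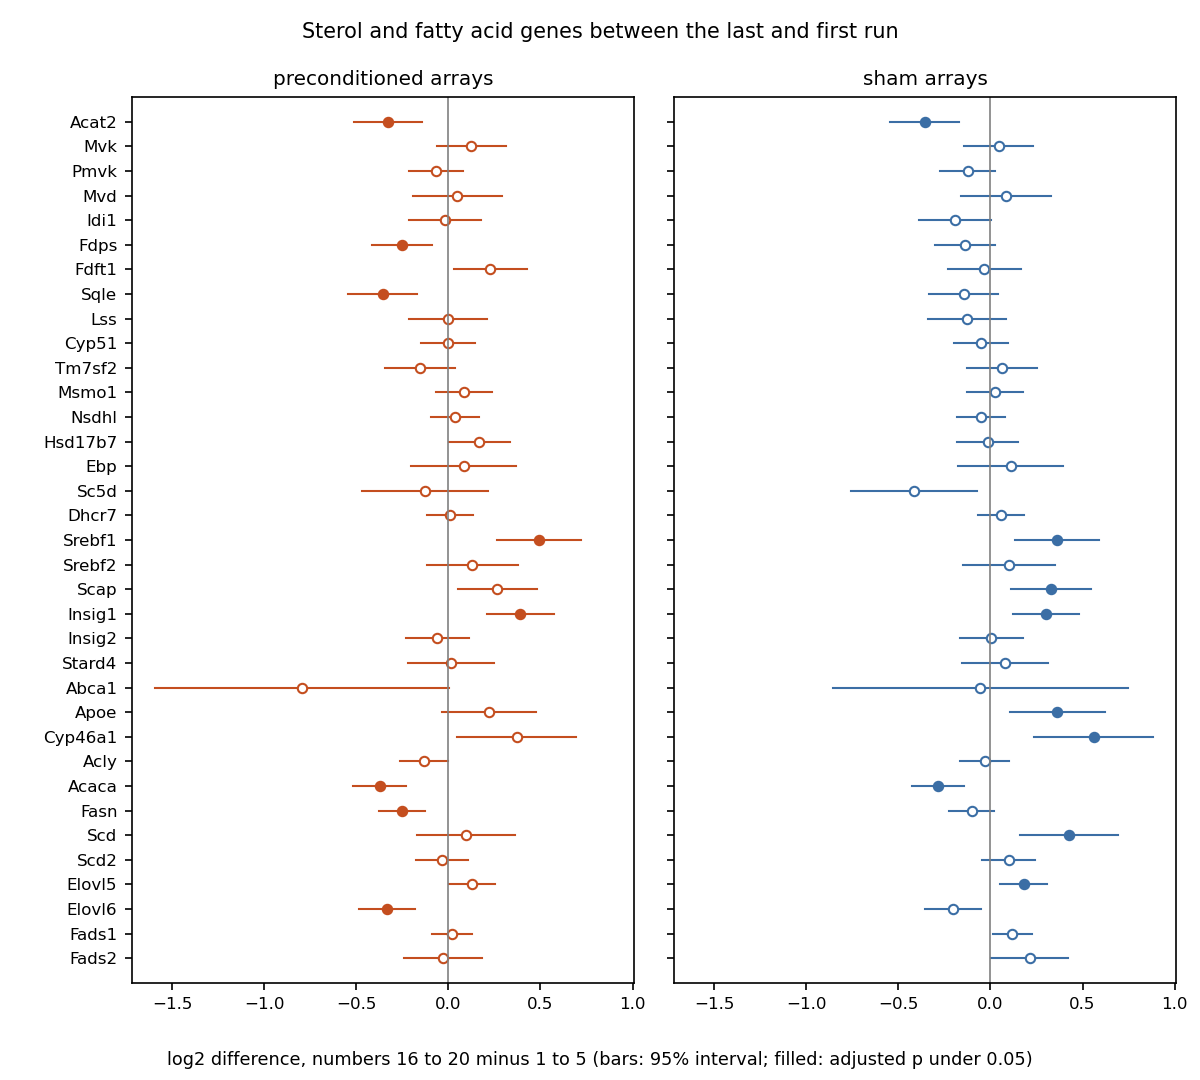
Log2 difference of each member between samples 16 to 20 and samples 1 to 5, in preconditioned arrays on the left and sham arrays on the right; points are fitted differences, bars are 95% intervals and filled points have a limma adjusted p under 0.05. Acat2 and Acaca lie below 0 and Srebf1 and Insig1 above 0 in both panels.

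Markers of several cell types moved between the same runs. In sham samples 16 to 20 against 1 to 5, 3 of the 5 tested myelin genes were higher, Mbp by 1.15, Mag by 0.69 and Cnp by 0.44 on the log2 scale. Also higher were 6 of 10 astrocyte genes, 7 of 12 neuronal genes, 4 of 6 microglial genes, 1 of 5 oligodendrocyte precursor genes and 2 of 6 genes of striatum, hippocampus and thalamus. None of 8 endothelial and mural, 2 choroid plexus or 2 blood genes passed, and 1 of 5 meningeal genes, Col1a2, was lower. Of all 18625 probe sets, 1293 were called higher and 1467 lower in the same contrast, or 14.8% together. The mean level of a list is over its tested genes. The mean log2 level of the 5 tested myelin genes lay between 7.91 and 8.65 in preconditioned samples 16 to 20. It lay between 7.16 and 7.43 in preconditioned samples 1 to 5. In sham samples it lay between 7.73 and 8.55 in samples 16 to 20, against 7.41 to 7.80 in samples 1 to 5. The astrocyte mean lay between 9.17 and 9.60 in preconditioned samples 16 to 20, against 8.93 to 9.16 in preconditioned samples 1 to 5, and between 9.08 and 9.46 in sham samples 16 to 20, against 8.82 to 9.04 in sham samples 1 to 5. The ranges of the first and last runs did not overlap in either group for astrocyte and microglial genes, and in preconditioned samples for myelin genes. The neuronal mean lay between 9.66 and 9.98 in preconditioned samples 16 to 20, against 9.58 to 9.73 in preconditioned samples 1 to 5, and between 9.69 and 10.00 in sham samples 16 to 20, against 9.46 to 9.70 in sham samples 1 to 5. The microglial mean lay between 6.41 and 7.11 in preconditioned samples 16 to 20, against 6.03 to 6.17 in preconditioned samples 1 to 5, and between 6.38 and 7.01 in sham samples 16 to 20, against 5.81 to 6.34 in sham samples 1 to 5. In a piece of tissue, more cells of a type and more RNA per cell cannot be told apart. The part of these lists in the members' differences between runs was not tested.

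Over all 40 arrays, the mean log2 level of the other lists ranged from 6.88 to 7.42 for oligodendrocyte precursors, from 6.61 to 7.06 for endothelial and mural cells, from 5.74 to 9.71 for choroid plexus, from 7.88 to 8.46 for meninges, from 9.08 to 10.31 for blood and from 6.88 to 7.37 for striatum, hippocampus and thalamus. The low end for choroid plexus lay in sham samples 6 to 10, and in each of the other groups and runs its range began at 8.83 or above. Between preconditioned and sham, the only marker genes called in any run or in the average were Pdgfra, Gfap, Aldoc, Glul, Pecam1, Vwf and Prox1. Gfap, the astrocyte filament gene, was higher by 1.02 in samples 6 to 10 and by 1.07 in samples 11 to 15. No myelin, neuronal, microglial, choroid plexus, meningeal or blood gene was called for preconditioning. The shares of all probe sets called were 2.39%, 2.22%, 0.0698% and 0% in the 4 runs and 3.99% in the average. The absence of calls in lists this short thus lies close to the background.

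The mevalonate steps had 6 measured genes, and none passed for preconditioning. Acat2, the thiolase that joins acetyl-CoA units, and Idi1, the isomerase of the isoprenoid unit, had the lowest values in samples 11 to 15, with differences of -0.19 ± 0.09 and -0.25 ± 0.10 and adjusted p of 0.503 and 0.375 by limma. In that run all 6 differences were negative, with a median of -0.12, and in the other runs signs were mixed. Mvk and Pmvk, the kinases that phosphorylate mevalonate, averaged -0.05 ± 0.05 and -0.08 ± 0.04 over the runs. Mvd, the decarboxylase that makes the isoprenoid unit, averaged -0.04 ± 0.06, and Fdps, which joins units into farnesyl diphosphate, averaged 0.01 ± 0.04. The adjusted p of these 4 averages was 0.243 or above by limma. A second Idi1 probe set gave -0.14, -0.19, -0.13 and -0.08 in the 4 runs and averaged -0.13 (limma adjusted p = 0.0982), where the chosen one averaged -0.08 (0.357).

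Acat2 measured 773, 795, 690, 662 and 840 in preconditioned samples 1 to 5, against 737, 938, 709, 727 and 714 in sham samples 1 to 5. Acat2 gave 575, 696, 721, 671 and 611 in preconditioned samples 6 to 10, against 606, 748, 766, 708 and 659 in sham samples 6 to 10. In both groups the highest values stood in the first run, where sham sample 2, at 938, lay well above the other sham samples at 709 to 737. Acat2 then gave 696, 594, 642, 721 and 653 in preconditioned samples 11 to 15, against 802, 676, 773, 733 and 778 in sham samples 11 to 15. Acat2 reached 715, 507, 668, 582 and 534 in preconditioned samples 16 to 20, against 676, 491, 626, 618 and 574 in sham samples 16 to 20. Every sham sample of the last run lay below every sham sample of the first, and preconditioned samples overlapped between those runs. The contrast of samples 16 to 20 minus 1 to 5 gave -0.33 ± 0.09 in preconditioned and -0.36 ± 0.09 in sham samples, with limma adjusted p of 0.00992 and 0.00665. The sham F-test across runs gave an adjusted p of 0.0159, which became 0.0917 without sham sample 17. Fdps also fell between these runs in preconditioned samples, with a difference of -0.25 ± 0.08 and an adjusted p of 0.0267, while sham samples gave -0.14 ± 0.08 and 0.254.

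Squalene and lanosterol are made by 3 enzymes. Fdft1, squalene synthase, commits farnesyl units to sterols, Sqle puts oxygen onto squalene, and Lss closes the rings to lanosterol. Fdft1 was lower after preconditioning in the average of the runs, and neither neighbour passed. Fdft1 measured 370, 416, 438, 482 and 489 in preconditioned samples 1 to 5, against 512, 599, 575, 533 and 546 in sham samples 1 to 5. Fdft1 gave 408, 393, 497, 400 and 431 in preconditioned samples 6 to 10, against 471, 512, 586, 480 and 491 in sham samples 6 to 10. In samples 1 to 5 every preconditioned value was below every sham value, and in samples 6 to 10 the 4 lowest of the 10 values were all preconditioned. Fdft1 then gave 590, 390, 563, 570 and 630 in preconditioned samples 11 to 15, against 544, 466, 497, 578 and 612 in sham samples 11 to 15. Fdft1 reached 470, 479, 573, 523 and 520 in preconditioned samples 16 to 20, against 651, 476, 523, 552 and 510 in sham samples 16 to 20. In these later runs the groups overlapped widely, and preconditioned sample 12, at 390, was the lowest of its run. The difference was -0.34 ± 0.10 in samples 1 to 5 and -0.26 ± 0.10 in samples 6 to 10, with limma adjusted p of 0.0513 and 0.159. It was 0.01 ± 0.10 in samples 11 to 15 and -0.08 ± 0.10 in samples 16 to 20. The average over the runs was -0.16 ± 0.05, a fold of 0.892, with an adjusted p of 0.0458. The difference between runs did not pass (adjusted p = 0.403).

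In the chosen fit, which does not pair samples by number, the call for Fdft1 sat at the threshold. Leaving out 1 array at a time ended it in 24 of 40 fits, with an average between -0.18 and -0.13 and an adjusted p up to 0.0768. Conversely the difference in samples 1 to 5 was called in 9 of the 40 such fits, with an adjusted p down to 0.0173 by limma. Without preconditioned samples 5 and 6 together it was -0.38 with an adjusted p of 0.0446. With sample number as a block in the fit, the limma adjusted p was 0.0108 in samples 1 to 5 and 0.00912 in the average. The labels do not state that the numbers pair the samples, but in the data 19 of 20 correlated best with their own number. The second Fdft1 probe set gave -0.19, -0.02, 0.02 and -0.14 in the 4 runs and an average of -0.08 with an adjusted p of 0.311, so only 1 of the 2 was called.

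Sqle and the chosen Lss probe set ran in opposite directions in the first runs, and neither passed. Sqle differed by 0.15 ± 0.09 in samples 1 to 5 and by 0.20 ± 0.09 in samples 6 to 10, with limma adjusted p of 0.411 and 0.259. Lss differed by -0.19 ± 0.10 and -0.23 ± 0.10 in the same runs, with adjusted p of 0.357 and 0.25. A second Lss probe set did not share this direction in samples 6 to 10. It gave -0.01 in samples 1 to 5 and 0.18 in samples 6 to 10, with limma adjusted p of 0.978 and 0.567. In samples 11 to 15 the signs were turned, at -0.10 ± 0.09 for Sqle and 0.13 ± 0.10 for Lss. In preconditioned samples Sqle had its highest level in the first run. Its intensity ranged from 688 to 825 with a median of 752 in samples 16 to 20, against 852 to 1226 with a median of 923 in samples 1 to 5, a difference of -0.36 ± 0.09 (limma adjusted p = 0.0063). Sham samples gave -0.15 ± 0.09 for the same contrast (0.307).

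**Figure D3:**
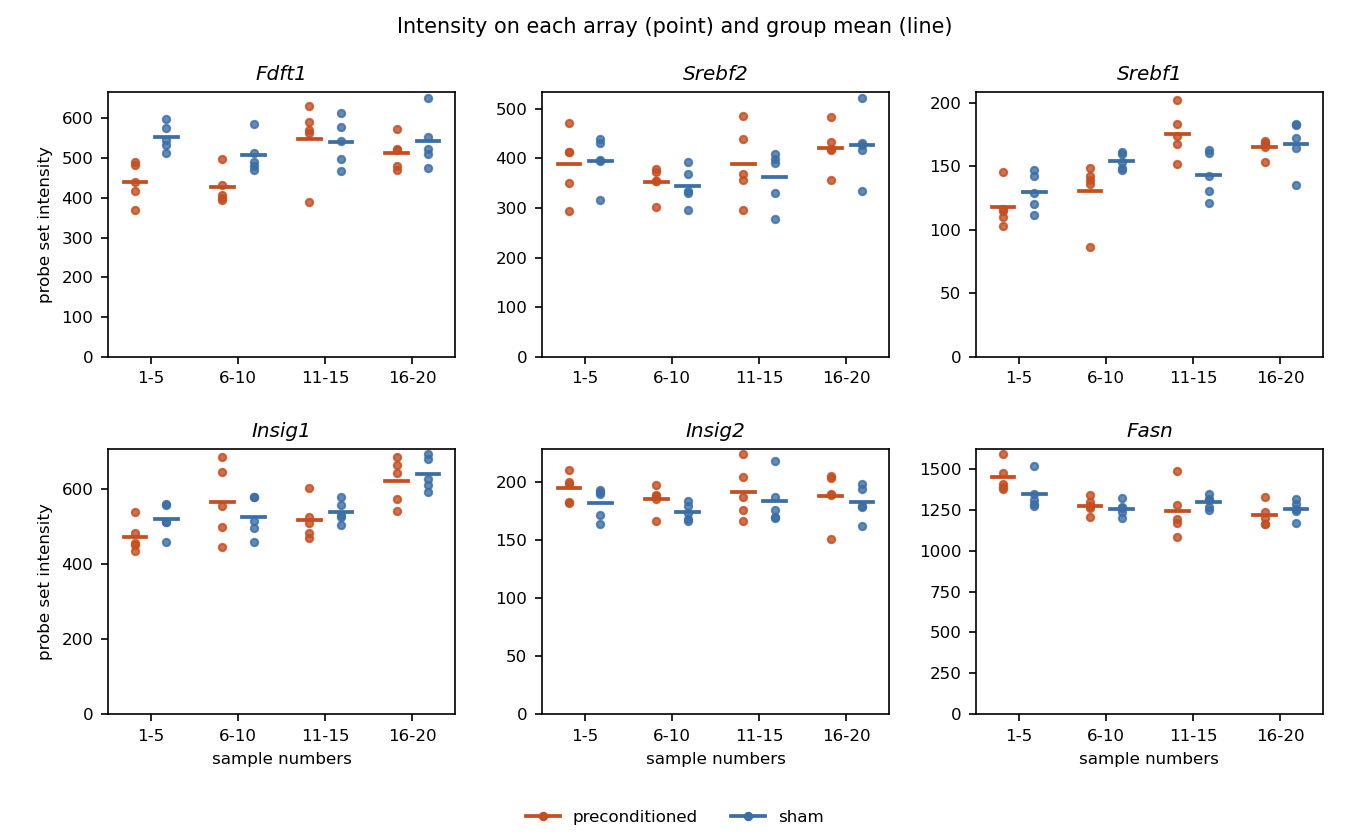
Probe set intensity of Fdft1, Srebf2, Srebf1, Insig1, Insig2 and Fasn in every array, by run, with preconditioned samples left of sham samples; points are arrays and lines are group means (5 arrays each). Fdft1 is separated in samples 1 to 5 only, and Srebf1 and Insig1 are higher in samples 16 to 20 than in samples 1 to 5 in both groups.

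The 8 enzymes from lanosterol to cholesterol gave no call for preconditioning. Cyp51, the demethylase that acts on lanosterol, averaged 0.02 ± 0.04, and Tm7sf2, a sterol reductase that follows it, averaged 0.09 ± 0.05. A second Cyp51 probe set gave -0.21, -0.14, -0.11 and -0.06 in the 4 runs. Its average was -0.13, with a limma adjusted p of 0.0785, so the 2 probe sets differed in sign. Msmo1, the oxidase that starts removal of further methyl groups, Nsdhl, the dehydrogenase of that removal, and Hsd17b7, its ketoreductase, averaged 0.01 ± 0.04, -0.04 ± 0.03 and -0.06 ± 0.04. Ebp, the isomerase that shifts a ring double bond, had the largest average of the 8, -0.18 ± 0.07, with negative values of -0.14, -0.28, -0.14 and -0.16 in the 4 runs and an adjusted p of 0.14 by limma. The Ebp groups overlapped in every run. Dhcr7, the reductase of the last step, averaged -0.00 ± 0.03.

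Sc5d, the sterol desaturase, stood out for its spread. Its intensity ranged from 411 to 463 in preconditioned samples 1 to 5, against 470 to 525 in sham samples 1 to 5, without overlap. In samples 6 to 10 it ranged from 239 to 554 in preconditioned samples and from 342 to 511 in sham samples. The separation of the first run was thus small beside the spread of the next. The differences were -0.18 ± 0.17 in samples 1 to 5 and -0.03 ± 0.08 in the average, with adjusted p of 0.635 and 0.883 by limma. Between sham runs, samples 16 to 20 ranged from 347 to 390, below all of samples 1 to 5, with a difference of -0.41 ± 0.17 that did not pass (0.0938). Another Sc5d probe set passed for that contrast, at -0.75 with an adjusted p of 0.019, and the remaining one gave -0.04 (0.812). None of the 8 chosen probe sets was called across the runs, or between the last and the first, in either group.

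The transcription factors and their regulators gave 5 measured genes, none called for preconditioning. Srebf2 measured 412, 294, 350, 413 and 471 in preconditioned samples 1 to 5, against 396, 317, 430, 395 and 439 in sham samples 1 to 5. Srebf2 gave 355, 372, 355, 302 and 379 in preconditioned samples 6 to 10, against 333, 368, 331, 392 and 295 in sham samples 6 to 10. Srebf2, the gene of the sterol factor SREBP-2, thus had overlapping groups in both runs. Srebf2 then gave 439, 485, 369, 295 and 357 in preconditioned samples 11 to 15, against 331, 399, 278, 409 and 391 in sham samples 11 to 15. Srebf2 reached 418, 356, 484, 417 and 433 in preconditioned samples 16 to 20, against 427, 521, 417, 430 and 335 in sham samples 16 to 20. The Srebf2 groups overlapped here too, and spread within a group was wide beside any difference between groups. The average difference was 0.02 ± 0.06, and the largest of the 4 runs was 0.10 ± 0.12. The Srebf2 level did not pass between runs in sham samples, with 0.10 ± 0.12 between the last and the first, or in preconditioned samples, with 0.13 ± 0.12.

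Srebf1, the gene of SREBP-1, had differences of changing sign, -0.14 ± 0.11, -0.26 ± 0.11, 0.29 ± 0.11 and -0.01 ± 0.11 in the 4 runs. Their limma adjusted p was 0.561, 0.223, 0.364 and 0.998, and the difference between runs did not pass (0.216). Its intensity ranged from 152 to 202 in preconditioned samples 11 to 15, against 121 to 163 in sham samples 11 to 15. In samples 6 to 10 it ranged from 86.5 to 149 in preconditioned samples and from 147 to 161 in sham samples. Preconditioned sample 6, one of the arrays that stand apart, gave the 86.5. Srebf1 was higher in the last run than in the first in both groups. The difference between samples 16 to 20 and 1 to 5 was 0.49 ± 0.11 in preconditioned and 0.36 ± 0.11 in sham samples, with limma adjusted p of 0.00205 and 0.0251. The sham contrast was lost in 5 of 40 fits that left out 1 array, with an adjusted p up to 0.0713. The F-test across runs gave an adjusted p of 0.000359 in preconditioned samples, where the second Srebf1 probe set gave 0.0112, and it did not pass in sham samples (0.0909).

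Insig1, which retains SCAP when sterols are plentiful and is itself induced by SREBP, did not pass for preconditioning and was higher in the last run. Insig1 measured 456, 453, 435, 484 and 540 in preconditioned samples 1 to 5, against 459, 513, 561, 512 and 558 in sham samples 1 to 5. Insig1 gave 500, 555, 686, 646 and 445 in preconditioned samples 6 to 10, against 497, 578, 580, 516 and 459 in sham samples 6 to 10. In both runs the 2 groups overlapped, and preconditioned values spread most in samples 6 to 10. Insig1 then gave 605, 470, 509, 527 and 484 in preconditioned samples 11 to 15, against 506, 580, 525, 557 and 532 in sham samples 11 to 15. Insig1 reached 665, 574, 686, 643 and 542 in preconditioned samples 16 to 20, against 694, 592, 680, 629 and 613 in sham samples 16 to 20. In each group every Insig1 value of the last run was above every value of the first. The differences for preconditioning were -0.14 ± 0.09, 0.09 ± 0.09, -0.06 ± 0.09 and -0.05 ± 0.09. Samples 16 to 20 minus 1 to 5 gave 0.39 ± 0.09 in preconditioned and 0.30 ± 0.09 in sham samples, with limma adjusted p of 0.00191 and 0.0182. The sham F-test gave 0.0391, and it was lost in 10 of 40 fits that left out 1 array, with an adjusted p up to 0.114 without sham sample 18. The sham contrast of the last and first runs was lost without sham sample 1 (0.0718).

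Insig2, the second retention protein, whose transcript in liver is not driven by SREBP, had small differences. Insig2 measured 183, 182, 201, 199 and 211 in preconditioned samples 1 to 5, against 192, 172, 190, 193 and 164 in sham samples 1 to 5. Insig2 gave 198, 166, 188, 189 and 186 in preconditioned samples 6 to 10, against 184, 180, 166, 169 and 174 in sham samples 6 to 10. The highest values here, 201 and 211, were preconditioned, yet the ranges overlapped. Insig2 then gave 205, 167, 176, 188 and 225 in preconditioned samples 11 to 15, against 176, 188, 170, 219 and 169 in sham samples 11 to 15. Insig2 reached 190, 189, 151, 205 and 204 in preconditioned samples 16 to 20, against 180, 179, 199, 194 and 162 in sham samples 16 to 20. Preconditioned sample 18, at 151, was the lowest of all 40 values, and the other 4 samples of its group lay at 189 to 205. The differences were 0.10 ± 0.08, 0.09 ± 0.08, 0.06 ± 0.08 and 0.04 ± 0.08, and the average of 0.07 ± 0.04 had a limma adjusted p of 0.37. Insig2 was not called between runs in either group.

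Scap, the sterol-sensing escort of the SREBPs, was higher in the last sham run. Scap measured 265, 308, 281, 304 and 315 in preconditioned samples 1 to 5, against 297, 282, 298, 280 and 301 in sham samples 1 to 5. Scap gave 245, 248, 329, 285 and 215 in preconditioned samples 6 to 10, against 269, 323, 297, 248 and 269 in sham samples 6 to 10. The groups overlapped in both runs. Scap then gave 287, 460, 273, 269 and 309 in preconditioned samples 11 to 15, against 315, 312, 269, 321 and 318 in sham samples 11 to 15. Scap reached 311, 312, 393, 392 and 369 in preconditioned samples 16 to 20, against 336, 424, 352, 345 and 379 in sham samples 16 to 20. Preconditioned sample 12 gave 460, the highest Scap value of all, and all 5 sham samples of the last run were above all 5 of the first. The average difference for preconditioning was -0.03 ± 0.05. Samples 16 to 20 minus 1 to 5 gave 0.27 ± 0.11 in preconditioned and 0.33 ± 0.11 in sham samples, with limma adjusted p of 0.077 and 0.0325. The sham contrast was lost in 5 of 40 fits that left out 1 array, with an adjusted p up to 0.106. The sham F-test gave 0.038, and 0.146 without sham sample 17. A second Scap probe set gave 0.33 for the sham contrast with an adjusted p of 0.16.

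The 4 genes of sterol transport and turnover had no call for preconditioning. Stard4, a carrier of sterol between membranes, averaged -0.05 ± 0.06. Apoe, the apolipoprotein on which astrocytes release cholesterol, averaged 0.07 ± 0.06. Apoe intensity ranged from 2854 to 3467 in preconditioned samples 16 to 20 and from 2675 to 3633 in sham samples 16 to 20, while sham samples 1 to 5 ranged from 2272 to 2619, below all of the last sham run. The sham contrast between these runs was 0.36 ± 0.13 (limma adjusted p = 0.0457) and was lost in 8 of 40 fits that left out 1 array, with an adjusted p up to 0.128. In preconditioned samples it was 0.22 ± 0.13 (0.241). Preconditioned sample 6, one of the arrays that stand apart, gave an Apoe value of 4988, where the median of its run was 2661.

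Abca1, the pump that loads cholesterol onto apolipoproteins, was the least certain member, with a standard error of 0.40 in each run. Its values fell into a low and a high band on the same probe set, 80.6 to 108 and 194 to 346, with none between. Of the 20 preconditioned samples 8 lay in the low band, and of the 20 sham samples 3 did. In samples 1 to 5 all values were in the high band, the lowest being 232 in preconditioned and 197 in sham samples. The differences were 0.06, -0.48, -0.22 and -0.67 in the 4 runs, and the average was -0.33 ± 0.20 with a limma adjusted p of 0.373. Its 95% interval, from -0.73 to 0.07, does not allow a statement on direction. The other kept Abca1 probe sets averaged -0.02 and -0.16, with limma adjusted p of 0.882 and 0.562.

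Cyp46a1, the neuronal hydroxylase through which the brain sheds cholesterol, did not pass for preconditioning and was higher in the last sham run. Cyp46a1 measured 138, 130, 180, 165 and 140 in preconditioned samples 1 to 5, against 103, 183, 133, 120 and 213 in sham samples 1 to 5. Cyp46a1 gave 154, 125, 151, 130 and 149 in preconditioned samples 6 to 10, against 141, 119, 150, 179 and 154 in sham samples 6 to 10. Sham samples 1 to 5 spread from 103 to 213, wider than the preconditioned samples beside them. Cyp46a1 then gave 159, 240, 160, 145 and 181 in preconditioned samples 11 to 15, against 121, 160, 227, 149 and 200 in sham samples 11 to 15. Cyp46a1 reached 150, 248, 183, 200 and 198 in preconditioned samples 16 to 20, against 215, 251, 183, 220 and 207 in sham samples 16 to 20. The last sham run, at 183 to 251, overlapped the first only at its lower end. The average difference was -0.03 ± 0.08. Cyp46a1 in samples 16 to 20 minus 1 to 5 gave 0.37 ± 0.16 in preconditioned and 0.56 ± 0.16 in sham samples, with limma adjusted p of 0.104 and 0.0146. The sham contrast was lost only without sham sample 1 (0.0769). The sham F-test gave 0.0345, and 0.115 without sham sample 17.

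Fatty acid synthesis begins with Acly, which splits citrate to give acetyl-CoA in the cytosol, Acaca, the carboxylase that makes malonyl-CoA, and Fasn, the synthase. None passed for preconditioning. The 3 differences were positive in samples 1 to 5, at 0.13 ± 0.07, 0.15 ± 0.07 and 0.11 ± 0.06, and negative in samples 11 to 15, at -0.15 ± 0.07, -0.03 ± 0.07 and -0.07 ± 0.06. The lowest adjusted p among these was 0.274 by limma, for Acaca in samples 1 to 5. Acaca measured 819, 836, 929, 1076 and 844 in preconditioned samples 1 to 5, against 825, 914, 710, 837 and 768 in sham samples 1 to 5. Acaca gave 718, 756, 831, 861 and 763 in preconditioned samples 6 to 10, against 697, 737, 731, 701 and 735 in sham samples 6 to 10. Preconditioned sample 4, at 1076, was the highest of all Acaca values, and the groups overlapped. Acaca then gave 815, 702, 667, 713 and 679 in preconditioned samples 11 to 15, against 727, 657, 814, 681 and 772 in sham samples 11 to 15. Acaca reached 740, 714, 698, 678 and 634 in preconditioned samples 16 to 20, against 690, 645, 690, 651 and 644 in sham samples 16 to 20. In both groups every value of the last run was below every value of the first. Samples 16 to 20 minus 1 to 5 gave -0.37 ± 0.07 in preconditioned and -0.28 ± 0.07 in sham samples, with limma adjusted p of 0.000252 and 0.00541. Neither sham call for this contrast of Acat2 or Acaca was lost in any of 40 fits that left out 1 array. A second Acaca probe set gave -0.17 for the sham contrast and was not called (0.272). The sham F-test of Acaca gave 0.0299, and 0.109 without sham sample 2.

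Fasn measured 1380, 1392, 1476, 1410 and 1594 in preconditioned samples 1 to 5, against 1272, 1516, 1346, 1312 and 1288 in sham samples 1 to 5. Fasn gave 1276, 1205, 1340, 1296 and 1264 in preconditioned samples 6 to 10, against 1200, 1267, 1324, 1236 and 1263 in sham samples 6 to 10. The ranges overlapped, and the highest value of the first run was preconditioned sample 5. Fasn then gave 1490, 1082, 1167, 1192 and 1281 in preconditioned samples 11 to 15, against 1346, 1249, 1319, 1313 and 1266 in sham samples 11 to 15. Fasn reached 1330, 1160, 1166, 1239 and 1199 in preconditioned samples 16 to 20, against 1317, 1170, 1284, 1240 and 1254 in sham samples 16 to 20. In the last preconditioned run every Fasn value lay below every value of the first, which was not so in sham samples. The average difference of Fasn for preconditioning was 0.00 ± 0.03, with a 95% interval from -0.06 to 0.07 on the log2 scale. Fasn in samples 16 to 20 minus 1 to 5 gave -0.25 ± 0.06 in preconditioned and -0.10 ± 0.06 in sham samples, with limma adjusted p of 0.00361 and 0.272. The test of whether the group difference changed with the run did not pass for Fasn (0.575).

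The 6 desaturases and elongases gave no call for preconditioning. Scd2, the main stearoyl-CoA desaturase of rodent brain, averaged 0.04 ± 0.04, Elovl5, which lengthens polyunsaturated chains, 0.01 ± 0.03, and Fads2, which desaturates their precursors, -0.04 ± 0.05. Scd, the stearoyl-CoA desaturase known chiefly from liver and fat, had the largest difference of the 6 in any run. Scd measured 82.5, 117, 135, 126 and 107 in preconditioned samples 1 to 5, against 111, 127, 109, 110 and 125 in sham samples 1 to 5. Scd gave 122, 88.7, 125, 128 and 125 in preconditioned samples 6 to 10, against 165, 109, 106, 106 and 88.4 in sham samples 6 to 10. Values of both groups were intermixed, and preconditioned sample 7, at 88.7, lay below the other preconditioned samples of its run, the lowest of which was at 122. Scd then gave 147, 125, 110, 102 and 122 in preconditioned samples 11 to 15, against 118, 138, 115, 136 and 134 in sham samples 11 to 15. Scd reached 93.2, 117, 142, 124 and 127 in preconditioned samples 16 to 20, against 142, 170, 170, 139 and 162 in sham samples 16 to 20. In the last run only 1 preconditioned value, 142, reached the sham range of 139 to 170. The difference in samples 16 to 20 was -0.39 ± 0.13, with an unadjusted p of 0.00579 and a limma adjusted p of 0.912. Sham samples 16 to 20 were all above sham samples 1 to 5, by 0.43 ± 0.13 (0.0241), whereas preconditioned samples gave 0.10 ± 0.13 (0.665). The sham call was lost in 5 of 40 fits that left out 1 array, with an adjusted p up to 0.0619. The sham F-test gave 0.0353, and 0.101 without sham sample 17. The test of the difference between groups across runs did not pass for Scd (0.51). Another of the Scd2 probe sets was lower in the last sham run, at -0.79 with an adjusted p of 0.00164, where the chosen one gave 0.10 and was not called.

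Fads1 measured 674, 683, 726, 685 and 695 in preconditioned samples 1 to 5, against 628, 640, 610, 646 and 677 in sham samples 1 to 5. Fads1 gave 690, 635, 705, 737 and 767 in preconditioned samples 6 to 10, against 656, 612, 632, 629 and 693 in sham samples 6 to 10. Fads1, which desaturates polyunsaturated chains, had preconditioned values mostly above the sham values in both runs. Fads1 then gave 640, 711, 700, 692 and 644 in preconditioned samples 11 to 15, against 764, 700, 710, 688 and 671 in sham samples 11 to 15. Fads1 reached 691, 684, 693, 742 and 700 in preconditioned samples 16 to 20, against 700, 731, 748, 675 and 629 in sham samples 16 to 20. In these runs the order of the groups was mixed. The differences were 0.11 ± 0.05 and 0.13 ± 0.05 in the first runs, with limma adjusted p of 0.265 and 0.184, then -0.06 ± 0.05 and 0.01 ± 0.05. The sham F-test of Fads1 gave 0.0863. Elovl6, which lengthens saturated chains, gave a similar order on the chosen probe set, with differences of 0.11, 0.15, -0.06 and -0.02 in the 4 runs. The second Elovl6 probe set gave 0.013, 0.025, -0.24 and -0.04, so it hardly differed between groups in the first runs. Elovl6 measured 410, 493, 419, 438 and 451 in preconditioned samples 1 to 5, against 433, 417, 373, 409 and 411 in sham samples 1 to 5. Elovl6 gave 386, 365, 381, 390 and 413 in preconditioned samples 6 to 10, against 346, 379, 367, 353 and 304 in sham samples 6 to 10. Preconditioned values stood highest in the first run, at 410 to 493. Elovl6 then gave 379, 322, 385, 310 and 346 in preconditioned samples 11 to 15, against 376, 337, 334, 400 and 364 in sham samples 11 to 15. Elovl6 reached 303, 366, 335, 383 and 370 in preconditioned samples 16 to 20, against 340, 416, 364, 325 and 334 in sham samples 16 to 20. All preconditioned values of the last run lay below all of the first. Elovl6 in samples 16 to 20 minus 1 to 5 gave -0.33 ± 0.07 in preconditioned and -0.20 ± 0.07 in sham samples, with limma adjusted p of 0.00152 and 0.0575. The preconditioned F-test across runs passed on both Elovl6 probe sets (0.00164 and 0.0187), and the sham F-test gave 0.0877. Elovl5 was higher in the last sham run by 0.18 ± 0.06 (0.0436), a call lost in 8 of 40 fits that left out 1 array, with an adjusted p up to 0.132. Across the members, 23 further probe sets of 18 genes were kept, of which 0 were called for preconditioning in a run or in the average. Among all probe sets 2.39%, 2.22%, 0.0698% and 0% were called in the 4 runs and 3.99% in the average. A count of 0 among 23 thus lies close to the background.

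A wider list of 32 genes of lipid handling, from other elongases to sterol esterification and export, had 24 tested. For preconditioning, 1 was called in samples 1 to 5 and 1 in samples 6 to 10, both times Soat1 and higher, none in samples 11 to 15 or 16 to 20, and 2, Soat1 and Abcg1, both higher, in the average. Over all probe sets the called shares were 2.39%, 2.22%, 0.0698% and 0% in the 4 runs and 3.99% in the average. None was called in the test of the difference between runs. Soat1 stores surplus cholesterol as esters. Soat1 measured 60.1, 59.6, 79.1, 67.5 and 81.0 in preconditioned samples 1 to 5, against 44.7, 48.5, 51.8, 56.8 and 42.7 in sham samples 1 to 5. Soat1 gave 68.0, 77.7, 53.6, 69.7 and 67.6 in preconditioned samples 6 to 10, against 56.7, 51.9, 43.3, 47.4 and 46.1 in sham samples 6 to 10. In samples 1 to 5 every preconditioned value was above every sham value, and in samples 6 to 10 only preconditioned sample 8 fell inside the sham range. Soat1 then gave 45.4, 62.4, 56.5, 55.1 and 52.5 in preconditioned samples 11 to 15, against 49.6, 67.6, 56.5, 52.2 and 56.8 in sham samples 11 to 15. Soat1 reached 61.7, 58.9, 50.8, 57.6 and 53.2 in preconditioned samples 16 to 20, against 48.4, 64.7, 52.3, 54.9 and 51.4 in sham samples 16 to 20. In the later runs the groups overlapped throughout. The difference was 0.50 ± 0.12 in samples 1 to 5, a fold of 1.42, and 0.45 ± 0.12 in samples 6 to 10, a fold of 1.37, with limma adjusted p of 0.0153 and 0.0348. It was -0.06 ± 0.12 and 0.06 ± 0.12 in the later runs. The average was 0.24 ± 0.06 (adjusted p = 0.0178), and the test of the difference between runs did not pass (0.152). Without preconditioned samples 5 and 6 the adjusted p was 0.0557 in the first run and 0.0623 in the second. Leaving out 1 array ended the call in 3 of 40 fits for samples 1 to 5 and in 8 for samples 6 to 10.

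Abcg1 measured 192, 196, 214, 190 and 181 in preconditioned samples 1 to 5, against 169, 146, 183, 184 and 175 in sham samples 1 to 5. Abcg1 gave 192, 185, 204, 183 and 211 in preconditioned samples 6 to 10, against 187, 180, 197, 186 and 190 in sham samples 6 to 10. Abcg1, which moves cholesterol to lipoproteins, had preconditioned values mostly above the sham values in samples 1 to 5 and intermixed with them in samples 6 to 10. Abcg1 then gave 212, 246, 188, 200 and 198 in preconditioned samples 11 to 15, against 173, 190, 178, 187 and 171 in sham samples 11 to 15. Abcg1 reached 201, 210, 193, 203 and 176 in preconditioned samples 16 to 20, against 186, 191, 161, 194 and 180 in sham samples 16 to 20. Preconditioned sample 12 gave the highest of all values, 246. The differences were 0.19, 0.05, 0.21 and 0.11 in the 4 runs, none of them called, and the average was 0.14 ± 0.04 with a limma adjusted p of 0.0226. With the mean of all Abcg1 probe sets the average was 0.06 with an adjusted p of 0.672. Across sham runs the F-test called 2 of the 24 wider lipid genes, where 13.7% of all probe sets were called, namely Lrp1, a lipoprotein receptor (0.00772), and Aacs, which activates acetoacetate for lipid synthesis (0.0379). Across preconditioned runs it called 5 of the 24, where 22.8% of all probe sets were called, namely Soat1 (0.0495), Nr1h2, a receptor for oxysterols (0.000466), Mbtps1, the first protease that cuts SREBPs (0.00554), Hsd17b12, a reductase of fatty acid elongation (0.0157), and Aacs (0.0406). Neither count was a larger share than that of all probe sets.

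**Figure D4:**
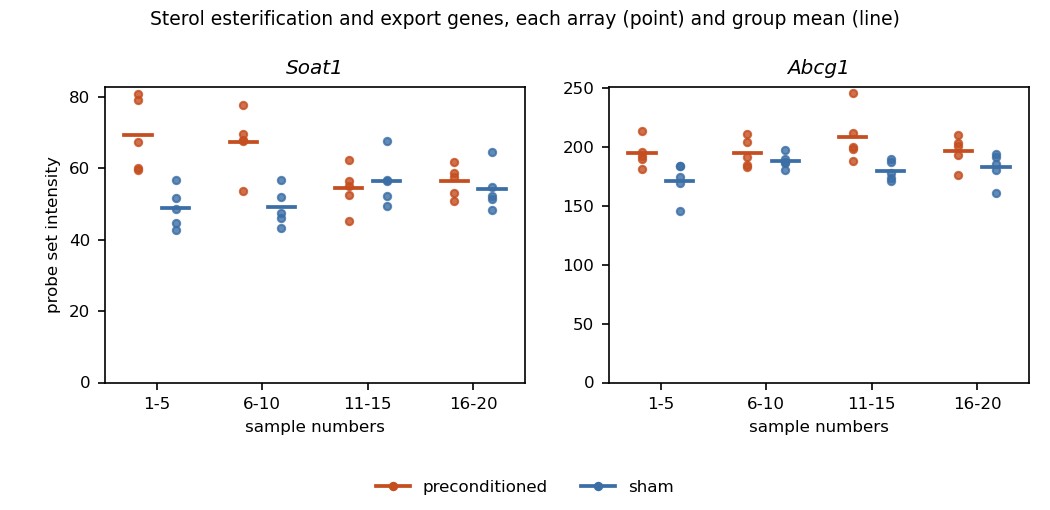
Probe set intensity of Soat1 and Abcg1 in every array, by run, with preconditioned samples left of sham samples; points are arrays and lines are group means (5 arrays each). Soat1 is separated in samples 1 to 5 and nearly so in samples 6 to 10, and overlaps afterwards.

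Apart from the groups, most pairs of sterol enzymes were positively correlated from array to array. After the mean of each group and run was taken out, the 136 pairs among the 17 measured sterol enzymes had a median correlation of 0.24 over the 40 arrays, and 113 pairs, or 83.1%, were positive. Over all pairs of the 10304 genes the median was 0.00, with quartiles at -0.14 and 0.15. All 35 members together had a median of 0.08 over 595 pairs. The median over the whole list was thus lower than that among the enzymes. The mevalonate genes were positive in 15 of 15 pairs, with a median of 0.35, and the 3 fatty acid synthesis genes had a median of 0.42. The highest pair was Apoe with Scd2, at 0.76, followed by Fdps with Fasn at 0.74, Fdps with Sqle at 0.72, Fdps with Dhcr7 at 0.71 and Acat2 with Dhcr7 at 0.70. The lowest were Hsd17b7 with Scd2, at -0.57, and Msmo1 with Srebf2, at -0.51. These points share the array, its scaling and its RNA, and the correlations are given as a description with no test.

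Preconditioned sample 12 had the lowest mean log2 level of the 17 sterol enzymes, 8.71, and sham sample 17 the next, 8.75, where the highest array, preconditioned sample 11, reached 9.08. Without preconditioned sample 12 the median correlation among the sterol enzymes was 0.18, with 106 of 136 pairs positive. Without preconditioned samples 5 and 6 it was 0.26, with 118 positive. By group and run, the mean level of the 17 enzymes was 8.94, 8.89, 8.92 and 8.91 in preconditioned runs, against 8.99, 8.91, 9.00 and 8.91 in sham runs. These means of 5 arrays spanned less than the single arrays did, and the groups overlapped in every run. The preconditioned mean was the lower one in each run, though both round to 8.91 in samples 16 to 20. In samples 1 to 5, preconditioned sample 5 was at 9.03. The other preconditioned samples of that run lay at 8.91 to 8.93, below all its sham samples, at 8.96 to 9.06. The difference in the pathway mean was not tested.

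**Figure D5:**
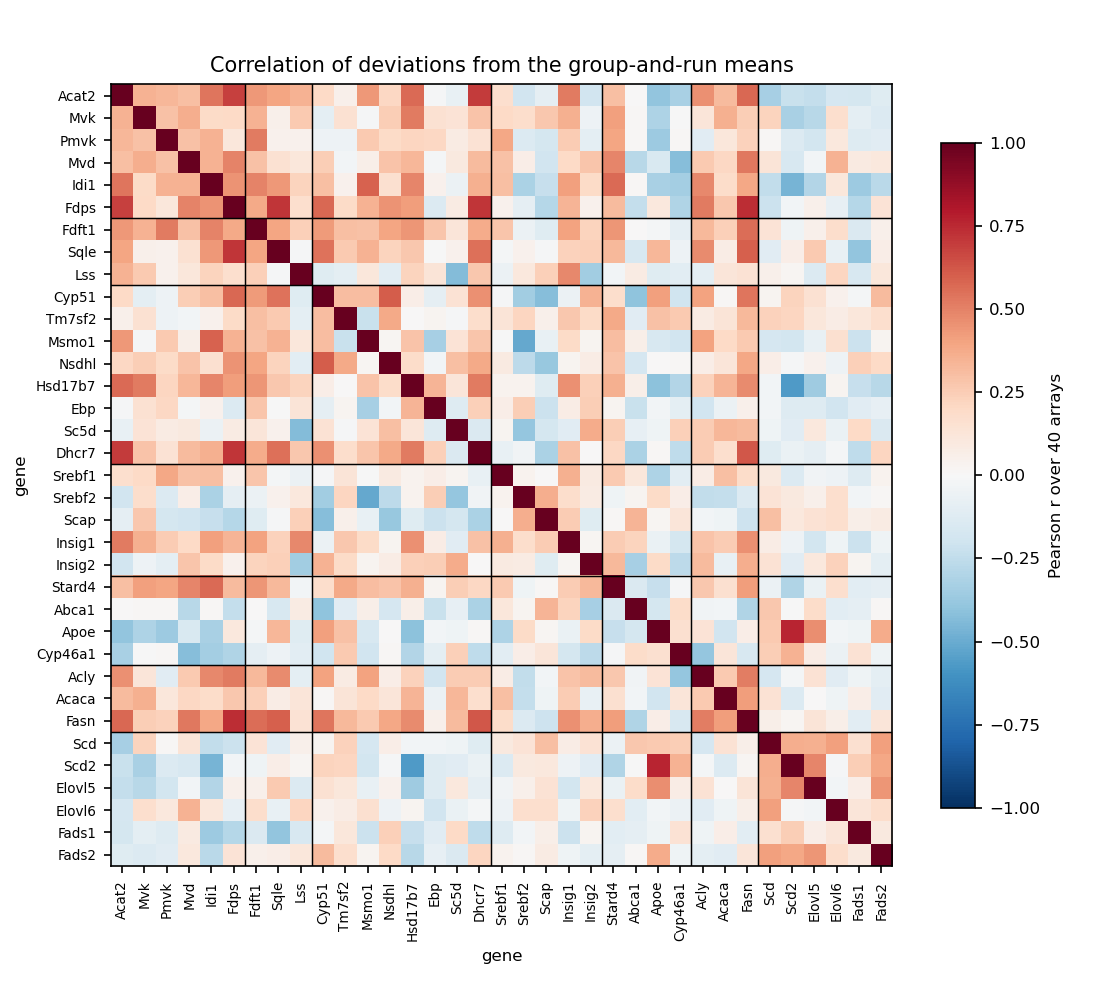
Correlation between members over 40 arrays after the mean of each group and run was removed, with genes ordered by step; the colour scale is Pearson's r. The block of sterol enzymes is mostly positive, with Fdps, Fdft1, Dhcr7 and Acat2 among the most tied.

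Because most sterol enzymes were positively correlated, promoters are shown for the 4 with the highest mean correlation to the others that have a single listed promoter, 0.36 for Fdps, 0.35 for Dhcr7, 0.34 for Acat2 and 0.31 for Hsd17b7. Each is the 250 bases before the transcription start on the gene's strand, from RefSeq on the rat build GRCr8. Capitals mark CCAAT, the NF-Y box, and GGGCGG, the Sp1 box, found on either strand, so that their reverse complements ATTGG and CCGCCC are also in capitals. NF-Y and Sp1 are known partners of SREBP at sterol-responsive promoters. Fdps lies at chr2:176804817-176805066 on the minus strand, Dhcr7 at chr1:208444184-208444433 on the plus strand, Acat2 at chr1:50100590-50100839 on the plus strand and Hsd17b7 at chr13:84722755-84723004 on the minus strand.
Fdps: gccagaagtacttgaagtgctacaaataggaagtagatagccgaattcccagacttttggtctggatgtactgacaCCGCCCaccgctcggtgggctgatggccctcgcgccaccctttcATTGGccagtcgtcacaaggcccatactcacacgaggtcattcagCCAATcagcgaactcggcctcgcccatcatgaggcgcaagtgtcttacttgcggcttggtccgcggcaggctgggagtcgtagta
Dhcr7: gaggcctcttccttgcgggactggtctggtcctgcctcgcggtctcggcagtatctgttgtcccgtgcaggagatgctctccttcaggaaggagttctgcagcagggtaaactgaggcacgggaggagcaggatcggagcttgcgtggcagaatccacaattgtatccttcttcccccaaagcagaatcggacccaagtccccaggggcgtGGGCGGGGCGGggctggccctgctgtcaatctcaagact
Acat2: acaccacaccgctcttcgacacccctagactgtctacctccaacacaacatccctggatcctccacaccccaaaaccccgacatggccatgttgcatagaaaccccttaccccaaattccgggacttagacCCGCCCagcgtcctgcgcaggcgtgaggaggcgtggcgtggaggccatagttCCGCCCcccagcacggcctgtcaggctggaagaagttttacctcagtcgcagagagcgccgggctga
Hsd17b7: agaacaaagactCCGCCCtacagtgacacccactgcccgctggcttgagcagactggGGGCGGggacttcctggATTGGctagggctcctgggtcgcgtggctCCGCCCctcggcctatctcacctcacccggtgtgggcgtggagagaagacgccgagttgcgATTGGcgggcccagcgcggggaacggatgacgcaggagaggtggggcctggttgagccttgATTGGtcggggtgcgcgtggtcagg

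Fdps held 2 CCAAT and 1 GGGCGG, Dhcr7 and Acat2 0 CCAAT and 2 GGGCGG each, and Hsd17b7 3 of each. Of the 36 members 29 had a promoter in the table, among them 15 of the 18 sterol enzymes. CCAAT was present in 72.4% of the members' promoters, in 80% of those of the sterol enzymes and in 34.3% of all 27457 promoters of the same length. GGGCGG was present in 75.9%, 86.7% and 32.4% of the same sets. Both boxes were thus more frequent in the members' promoters than in promoters at large, with no test made. ACGTG, the core that the hypoxia-inducible factors bind, was present in 27.6%, 13.3% and 16.9%. TCACNCCAC, a sterol regulatory element, was present in 0, 0 and 0.976%. All motifs were searched on both strands, overlapping matches of a motif were counted apart, and no motif of the 4 contains another. A match describes the letters in this window and says nothing of binding in these samples.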

How the data were processed

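The deposited table held one linear intensity per probe set and array. Which software made the intensity values is not given in the sources used here. On the deposited scale the mean of each array without the lowest and highest 2% of probe sets was 150.04 to 150.06, so the authors had scaled them. Values under 16 were set to 16 and log2 was taken; no further normalization was applied, since array medians spanned 0.29. After 57 control probe sets were removed, the 18625 of 31042 probe sets at or above the 40th percentile of mean level (intensity 31.9) were kept. Gene names came from the platform annotation (20826 probe sets with 1 gene, 436 with several, 9780 with none). A single limma fit (version 3.58.1 under R 4.3.3), moderated with a trend on mean level, of 8 group-by-run means gave all tests, two-sided, after a check on simulated data. The members, gene lists and tests were chosen with earlier results of these data known. Values in every array are given for Fdft1, the 8 members with the smallest p of the sham F-test, Srebf2, Insig1, Insig2 and Fasn; Srebf1, Sc5d, Abca1, Apoe, Sqle, Soat1 and Abcg1 were chosen for values after theirs were seen. The number of arrays limits the precision. Alternatives covered the normalization, floor, filter, mean trend, probe set, replicate block, samples fitted and each array left out.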

Additional observations from a re-analysis of the deposited data

Results flagged for a closer look

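Of 280 groups of 5 samples looked at (35 members in 8 groups), 19 held 1 sample far from the other 4 by Dixon's criterion at 95%, for which chance gives about 1 group in 20. Preconditioned sample 12 accounts for 4 of them, and samples 5 and 6, which stand apart as whole arrays, for 4. In preconditioned sample 12, Pmvk was low at 302 (others 354 to 376), Fdft1 low at 390 (others 563 to 630) and Cyp51 low at 1140 (others 1400 to 1510), while Scap was high at 460 (others 269 to 309). In preconditioned sample 5, Sqle was high at 1230 (others 852 to 945) and Nsdhl at 492 (others 442 to 453). In preconditioned sample 6, Srebf1 was low at 86.5 (others 136 to 149) and Apoe high at 4990 (others 2570 to 2720). Other preconditioned samples gave low values of Msmo1, 994 in sample 10 (others 1280 to 1310), Scd, 88.7 in sample 7 (others from 122), Insig2, 151 in sample 18 (others 189 to 205), and Elovl5, 727 in sample 14 (others 813 to 832).

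Among sham samples, sample 2 was high for Acat2 at 938 (others 709 to 737) and for Cyp51 at 1620 (others 1430 to 1470), and sample 10 was high for Sc5d at 511 (others 342 to 364). Low sham values were 296 for Tm7sf2 in sample 17 (others 327 to 341), 269 for Scap in sample 13 (others 312 to 321), 99.9 for Abca1 in sample 18 (others 276 to 339) and 963 for Acly in sample 5 (others 1190 to 1250).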

How the results depend on the processing

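The count of members called for preconditioning in samples 1 to 5, 0 in the chosen fit, became 1 (Fdft1) with quantile normalization, with a filter at the 60th percentile, without preconditioned samples 5 and 6, with the mean of all probe sets of a gene and with the replicate block; leaving out 1 array gave 0 to 1. The count in the average over runs, 1, became 0 with median centring, no filter, no mean trend, the mean of all probe sets or group alone without the runs, and lay between 0 and 1 with 1 array left out; with the replicate block it stayed at 1. Counts in the other 3 runs and in the test of differences between runs stayed at 0 under every alternative run. The sham F-test count of 6 became 2 with no filter and 3 with no mean trend (0 to 8 with 1 array left out), and the preconditioned count of 9 became 5 on the 20 preconditioned arrays alone (7 to 10). The sham count between the last and first runs, 9, ranged from 3 to 10 with 1 array left out. No result reversed. Sample numbers do not mark shared animals in the labels. In the data, 15 of 20 same-numbered pairs had deviations correlated above 0.1 (0.03 to 0.39), and 19 of 20 correlated best with their own number. Same-numbered samples thus resembled each other, which the replicate block takes into account and the chosen fit does not. What they share is not stated. No member value lay at the floor, and the number of arrays limits the precision. Among single genes, the calls of Fdft1, Elovl5, Apoe, Scap, Soat1 and Abcg1 were each lost under some alternatives, as were the sham F-test calls of Acaca, Cyp46a1, Insig1, Scap and Scd. With 1 array left out, some fits also lost the sham calls of Srebf1, Scd, Insig1 and Cyp46a1 between the last and first runs. The sham F-test call of Acat2 was lost in some of these fits too. Soat1 fitted on the 10 arrays of its run alone had a limma adjusted p of 0.11 in samples 1 to 5 and 0.178 in samples 6 to 10; the cause was not tested.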
